A study of Mus musculus with 4 samples.

Results

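Ribosome biogenesis and nucleolar genes are described here across an acute myeloid leukaemia in which a Ras oncogene was switched off. The 36 genes were chosen by name, with earlier results of these data known. All 36 were found among the 23235 genes of the deposited tables. Each reached 1 FPKM (fragment counts scaled to transcript length and library size) in each of the 4 libraries. The leukaemia cells carried NRASG12V, an activated form of the Ras protein NRAS, together with the fusion gene Mll-AF9. They were grown in SCID/Beige mice, which lack mature T and B cells and have defective natural killer cells but keep their own red cell and myeloid precursors. Doxycycline, given by injection and then in the drinking water, abolishes NRASG12V expression in this model. The groups were leukaemia with NRASG12V on, and with NRASG12V off 48 h, 72 h and 96 h after doxycycline began, with 1 library each. The labels print the same treatment for all 4 samples and do not say when the on sample was taken, nor do they give the tissue, the promoter that drives NRASG12V, the age of the mice, or whether each library came from its own mouse. No group is described as given doxycycline with NRASG12V still on for the same times, so the drug, the elapsed time and the switch cannot be told apart. All 3 comparisons with the on state share the on library.

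Ribosomes are built in the nucleolus. RNA polymerase I copies the ribosomal RNA precursor there, small nucleolar ribonucleoproteins (snoRNPs) mark sites for methylation (box C/D) or pseudouridine (box H/ACA), and separate sets of factors then fold and cut the precursor into the small and the large subunit. The transcription factor Myc is known to drive many of these genes, and ERK signalling below Ras is known to stabilise the Myc protein. Growing leukaemia cells depend on this pathway for protein synthesis.

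Most of these genes were lower 48 h after the switch and nearer to the on level by 96 h. At 48 h, 34 of the 36 lay below the on library, beside 60.3% of all genes reaching 1 FPKM in either library. At 72 h it was 30 of 36, beside 54.7%, and at 96 h 24 of 36, beside 54.1%. Changes are given as log2((off FPKM + 1)/(on FPKM + 1)) within each deposited table, a scale that understates the change of low genes. The median change of the 36 genes was -0.50 at 48 h, -0.33 at 72 h and -0.20 at 96 h. Over all genes it was -0.14, -0.07 and -0.06. At all 3 times 24 members were lower, beside 45.8% of all genes and 55.3% of genes in the members' range of on level, and Nop56 and Odc1 were higher. Levels in the text are on the scale of the 48 h table, to which the other tables were brought through the on library that they share. In each sentence on a gene, off levels are listed in the order 48 h, 72 h, 96 h.

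The fold sizes were modest. At 48 h, 13 of the 36 were at least 1.5-fold lower (17.6% of all genes were) and 1 was at least 1.5-fold higher (12.2%). At 72 h the counts were 8 lower (18.3% of all genes) and 1 higher (15%), and at 96 h 3 lower (19.8%) and 1 higher (15.9%). The members' share lower by 1.5-fold was thus 36.1% at 48 h, 22.2% at 72 h and 8.33% at 96 h, above the share of all genes at 48 h, near it at 72 h and below it at 96 h. At all 3 times 3 members, Fbl, Pes1 and Nop16, were at least 1.5-fold lower (11.5% of all genes), and 1, Odc1, was at least 1.5-fold higher (9.11%). No member was 2-fold lower at any time (4.85%, 5.76% and 8.16% of all genes were, in time order). Odc1 was the single member past 2-fold, and only at 96 h, when 7.39% of all genes were at least 2-fold higher (5% at 48 h and 6.61% at 72 h). Genes whose on level lay within the members' own range, 6.96 to 662 FPKM, are a closer background: 7060 genes, with medians of -0.26, -0.20 and -0.16 and 21.8%, 22.9% and 24.7% at least 1.5-fold lower. Against them the members' median was lower by 0.25 at 48 h, by 0.13 at 72 h and by 0.04 at 96 h.

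These sizes depend on the scale. Short RNAs aside, globin genes other than alpha made up 2.07% of summed FPKM when NRASG12V was on, and 6.76%, 10.5% and 11.9% when it was off. With each library rescaled to the FPKM outside globin genes and short RNAs, the median of all genes moved to 0.05, 0.14 and 0.11, that of the members to -0.29, -0.12 and -0.010, and 3, 2 and 0 members were at least 1.5-fold lower (9.74%, 10.7% and 14.0% of all genes). Setting the median change to 0 gave 7, 5 and 1 members (11.0%, 14.7% and 17.1%). As deposited, the members' median stood at -0.36, -0.26 and -0.14 relative to that of all genes.

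**Figure D1:**
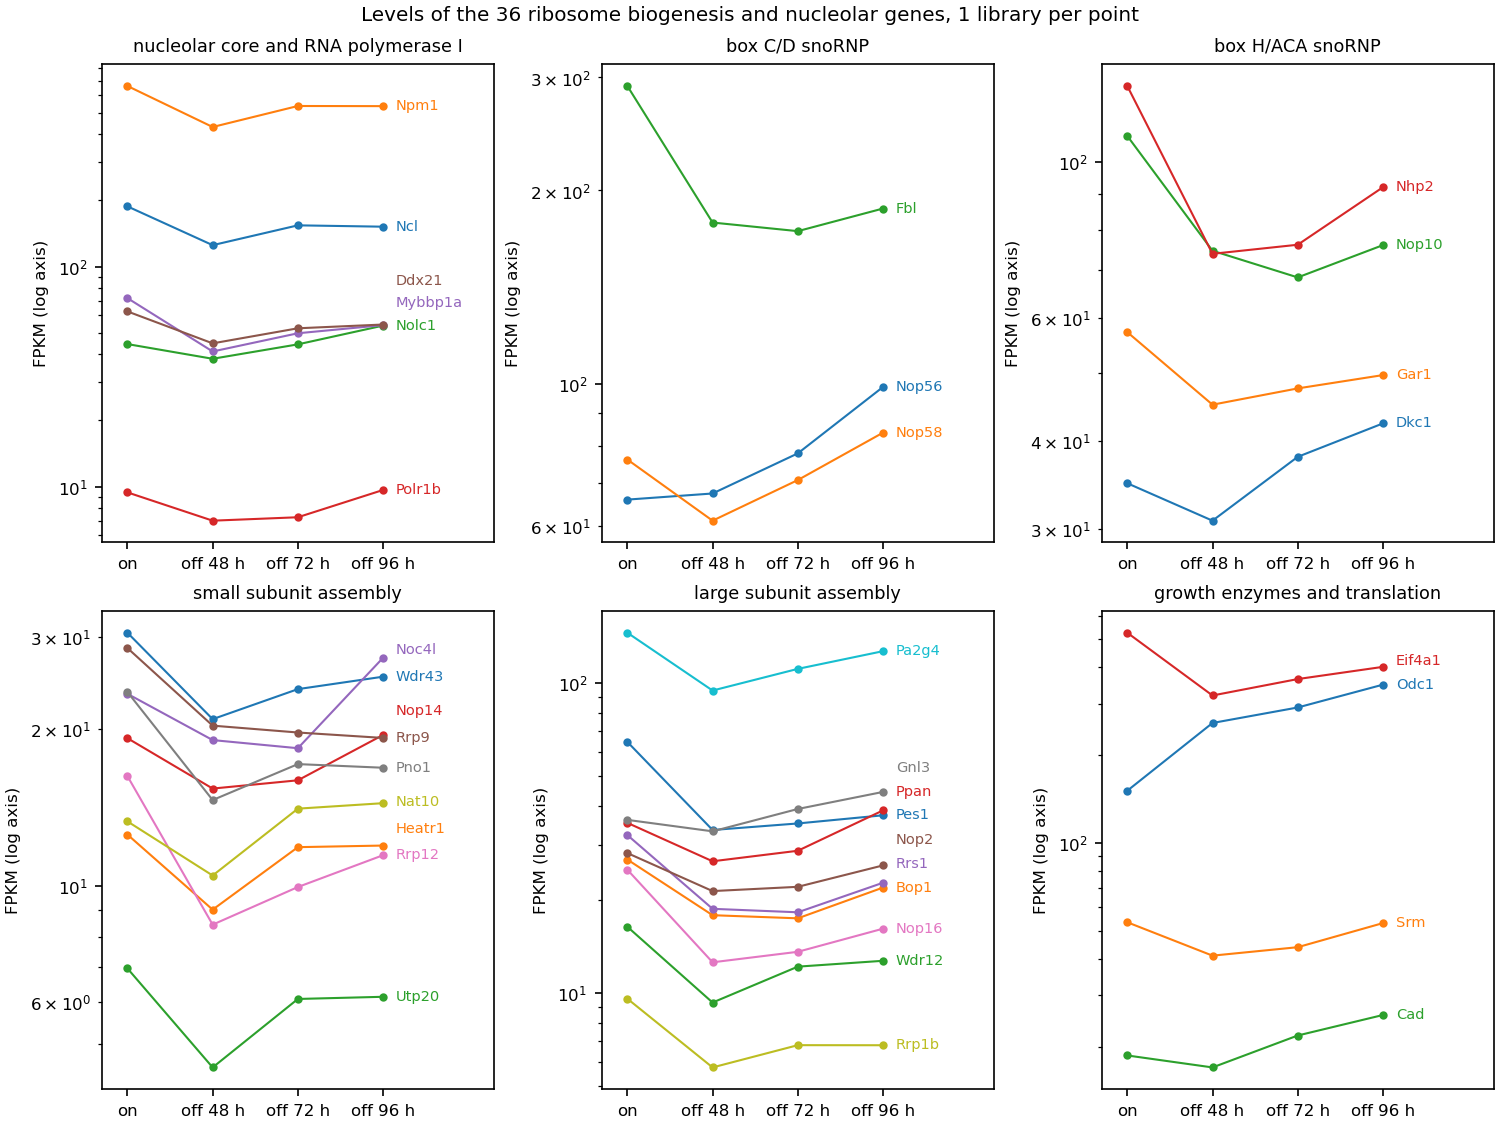
FPKM (log axis) of the 36 genes in the on library and the off libraries at 48 h, 72 h and 96 h, in 6 panels by role; each point is 1 library and lines join the libraries of a gene. For 30 genes the lowest off point is at 48 h, Fbl, Pes1 and Nop16 stay below their on level, and Odc1 is higher in each later library.

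Between off libraries the 96 h and 48 h levels were compared on the scale set through the shared on library. In 35 of the 36 genes the level was higher at 96 h than at 48 h, beside 59.6% of all genes, with Rrp9 the exception. With the median change set to 0 it was 33 of 36 (49.6% of all genes). The median difference between 96 h and 48 h was 0.35 on the log2 scale for the members and 0.08 for all genes. For genes in the members' range of on level it was 0.10, with 61.5% of them higher at 96 h. In 30 members the 48 h library was the lowest of the off libraries (48.6% of all genes), in 5 the 72 h library and in 1 the 96 h library. In 26 members each later library was higher than the one before, beside 31.8% of all genes. That count was 20 with the median change set to 0 (24.1% of all genes) and 23 after rescaling outside globin genes (28.4%). In 10 members the level was below the on library at 48 h and above it at 96 h, beside 11.5% of all genes. Each time rests on 1 library, so a difference between times has no replicate check.

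**Figure D2:**
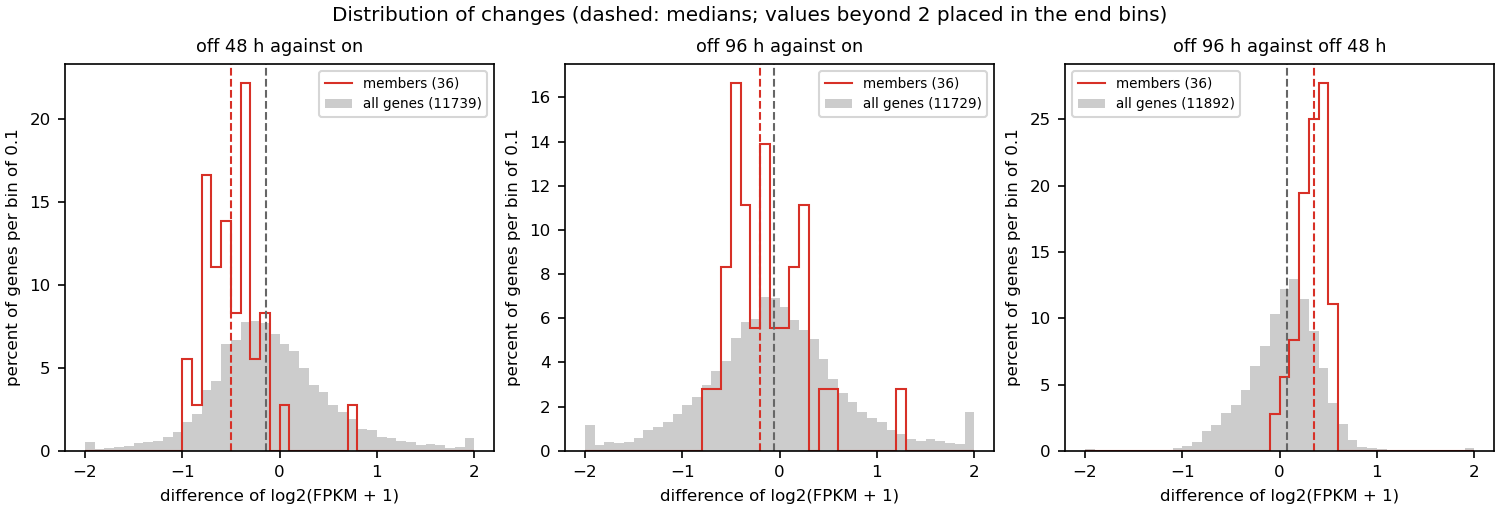
Percent of genes (vertical axis) per bin of 0.1 in the difference of log2(FPKM + 1) (horizontal axis), for all genes (grey) and the 36 members (red line), with dashed medians. The members lie left of all genes at 48 h (medians -0.50 and -0.14), overlap them at 96 h, and lie right of them when 96 h is set against 48 h (0.35 and 0.08).

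The promoters were examined for short motifs, since Myc and its partner Max bind the E-box CACGTG. RefSeq promoter sequences (GRCm38.p6, 250 bases before to 50 after the start) were matched by symbol for 30 of the 36 genes, giving 33 promoters. In 26 of the 33, bases after the start matched a GENCODE transcript of the gene, and in the others they did not. CACGTG, which reads the same on both strands, was in 7 of the 33 (21.2%), beside 7.15% of all 32851 promoters and 9.86% of the 10955 promoters of genes reaching 1 FPKM here. The variant CACGCG, on either strand, was in 9 (27.3%), beside 9.27% and 16.5%. The ETS core CCGGAAG was in 6 (18.2%), beside 8.86% and 17.1%, CCAAT in 9 (27.3%), beside 37.4% and 37.7%, and TCGCGAGA in 2 (6.06%), beside 0.995% and 2.14%. All motifs were searched on both strands, no matches of 2 different motifs shared bases in a member's promoter, and a match is a description only. The 7 windows with CACGTG are shown so that its setting can be read, with the motif in capitals, on the strand of the gene. It began 189 and 60 bases before the start site in Eif4a1 and Nop2, and within the first 41 bases after it in the other 5, whose windows are kept to 30 bases or fewer.
Eif4a1 (chr11:69672557-69672662, minus strand): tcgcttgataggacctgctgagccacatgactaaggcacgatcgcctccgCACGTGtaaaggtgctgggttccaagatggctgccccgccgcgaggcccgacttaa
Nop2 (chr6:125131773-125131878, plus strand): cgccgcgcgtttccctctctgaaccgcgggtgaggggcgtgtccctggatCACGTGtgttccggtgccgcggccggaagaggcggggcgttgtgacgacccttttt
Pes1 (chr11:3963965-3963994, plus strand): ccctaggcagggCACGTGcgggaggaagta
Wdr43 (chr17:71616220-71616249, plus strand): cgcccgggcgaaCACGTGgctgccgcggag
Utp20 (chr10:88826765-88826789, minus strand): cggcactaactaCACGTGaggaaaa
Pno1 (chr11:17211540-17211564, minus strand): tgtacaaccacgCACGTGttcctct
Mybbp1a (chr11:72441355-72441376, plus strand): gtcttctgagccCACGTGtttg

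Among the members that passed the limma test given further on, Odc1, Nop16 and Nhp2 held the CACGCG variant instead, in capitals here on whichever strand it was found.
Odc1 (chr12:17544722-17544827, plus strand): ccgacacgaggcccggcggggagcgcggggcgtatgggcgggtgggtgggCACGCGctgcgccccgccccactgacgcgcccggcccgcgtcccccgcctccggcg
Nop16 (chr13:54590029-54590058, minus strand): ggagactattaaCACGCGgctctgagagcg
Nhp2 (chr11:51619764-51619793, plus strand): ggaggcggcggcCGCGTGgttcctctatgc
The 7 genes shown with CACGTG were below the on level at all 3 times, as were 24 of the 36 members. Of the genes shown with the CACGCG variant, Odc1 was higher and Nop16 and Nhp2 were lower at all 3 times.

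The nucleolar core proteins and RNA polymerase I act at the first step, the making of the precursor. Npm1, nucleophosmin, the most abundant of the 36 and a chaperone of the outer nucleolus, was at 662 FPKM on and at 431, 537 and 536 FPKM off. Ncl, nucleolin, which binds the ribosomal RNA precursor, was at 188 FPKM on and at 125, 154 and 152 FPKM off. Both were lowest at 48 h, with changes of -0.62 and -0.58, and stayed at -0.30 at 96 h. Mybbp1a, a nucleolar protein that binds Myb, was lower throughout, at 71.9 FPKM on and 41.1, 49.8 and 54.2 FPKM off. The helicase Ddx21, which acts on ribosomal RNA transcription and processing, was at 62.5 FPKM on and at 44.8, 52.4 and 54.5 FPKM off. Polr1b, the second largest subunit of RNA polymerase I, was at 9.41 FPKM on and at 6.9998, 7.26 and 9.65 FPKM off. Nolc1, a scaffold that links snoRNPs to the nucleolus, was at 44.4 FPKM on and at 38.1, 44.3 and 53.9 FPKM off. Thus 4 of these 6 genes stayed below the on level at all times, beside 45.8% of all genes. Polr1b and Nolc1 ended above the on level. None of the 6 passed the limma test.

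The box C/D snoRNP proteins, which sit in the same particle, differed in direction. Fbl, fibrillarin, the methyltransferase, fell from 291 FPKM to 178, 173 and 187 FPKM, a mean log2 change of -0.69 ± 0.06 (SD over the 3 off libraries; limma, Benjamini-Hochberg adjusted p = 0.0363). Its off levels were close together and under the on level. Nop56, a core scaffold of the same particle, was instead at 66.0 FPKM on and at 67.4, 77.9 and 98.8 FPKM off. Its partner Nop58 was at 76.2 FPKM on and at 61.2, 70.8 and 83.9 FPKM off. Nop56 was above the on level in every off library, and Nop58 only at 96 h. Neither passed (limma, Benjamini-Hochberg adjusted p = 0.415 for Nop56 and 0.784 for Nop58). At 96 h the log2 changes of Fbl, Nop58 and Nop56 were -0.63, 0.14 and 0.58. Whether the genes differ from one another was not tested.

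The box H/ACA genes were all below the on level at 48 h, as were 60.3% of all genes, and differed in direction later. Nhp2, which binds the RNA within the particle, fell from 128 FPKM to 73.9, 76.2 and 91.9 FPKM (mean log2 change -0.67 ± 0.17, SD, n = 3; limma, Benjamini-Hochberg adjusted p = 0.0499). Nop10, its small partner, was at 109 FPKM on and at 74.7, 68.4 and 76.1 FPKM off, and narrowly did not pass (limma, Benjamini-Hochberg adjusted p = 0.0610). Both were below the on level in every off library. Gar1 was at 57.2 FPKM on and at 45.1, 47.6 and 49.7 FPKM off. Dkc1, dyskerin, the enzyme that makes pseudouridine, was at 34.9 FPKM on, at 30.8 FPKM at 48 h, and at 38.0 and 42.4 FPKM at 72 h and 96 h. It was the only one of these 4 genes above the on level, from 72 h, and did not pass (limma, Benjamini-Hochberg adjusted p = 0.824).

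Small subunit factors were lower in all 9 cases at 48 h, in 8 at 72 h and in 6 at 96 h. Of all genes, 60.3%, 54.7% and 54.1% were lower at these times. The medians of the 9 were -0.47, -0.33 and -0.16. Rrp12, which helps export the pre-ribosome, fell from 16.2 FPKM to 8.45, 9.97 and 11.5 FPKM (mean log2 change -0.66 ± 0.20, SD, n = 3; limma, Benjamini-Hochberg adjusted p = 0.0483). Wdr43, with the highest on level of the 9, was at 30.6 FPKM on and at 20.9, 23.8 and 25.2 FPKM off. Rrp9, a protein of the U3 snoRNP, was ordered the other way in time, at 28.6 FPKM on and at 20.3, 19.7 and 19.2 FPKM off. It was the single member of the 36 whose level at 96 h was under that at 48 h. Pno1, which joins the late small subunit precursor, was at 23.5 FPKM on and at 14.6, 17.1 and 16.9 FPKM off. These 4 genes stayed below the on level throughout.

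The other 5 small subunit factors were nearer to the on level at 96 h than at 48 h. Heatr1 was at 12.6 FPKM on and at 9.02, 11.9 and 11.97 FPKM off, and Utp20 at 6.96 FPKM on and at 4.502, 6.09 and 6.15 FPKM off. Both had changes between -0.44 and -0.53 at 48 h and were within 0.17 of the on level afterwards. Nop14 was at 19.2 FPKM on and at 15.4, 16.0 and 19.5 FPKM off, and its partner Noc4l at 23.4 FPKM on and at 19.0, 18.4 and 27.4 FPKM off. Nat10, which acetylates ribosomal RNA, was at 13.3 FPKM on and at 10.5, 14.1 and 14.4 FPKM off. These last 3 genes ended at or above the on level.

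Large subunit factors held the lowest mean changes of the 36, those of Pes1 and Nop16. Pes1, Bop1 and Wdr12 form the PeBoW complex, which is needed to process the RNA of the large subunit. Pes1 fell from 64.5 FPKM to 33.5, 35.2 and 37.4 FPKM (mean log2 change -0.85 ± 0.08, SD, n = 3; limma, Benjamini-Hochberg adjusted p = 0.0143). Bop1 was at 26.9 FPKM on and at 17.8, 17.4 and 21.9 FPKM off, and did not pass (limma, Benjamini-Hochberg adjusted p = 0.107). Wdr12 was at 16.4 FPKM on and at 9.32, 12.2 and 12.7 FPKM off (limma, Benjamini-Hochberg adjusted p = 0.120). Each of these subunits was below the on level at all times, Pes1 by the most.

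Nop16, a nucleolar factor known as a Myc target, fell from 24.97 FPKM to 12.6, 13.6 and 16.1 FPKM (mean log2 change -0.79 ± 0.17, SD, n = 3; limma, Benjamini-Hochberg adjusted p = 0.0229). Rrs1, which brings the 5S particle into the large subunit, fell from 32.3 FPKM to 18.7, 18.2 and 22.7 FPKM (-0.68 ± 0.16, SD, n = 3; limma, Benjamini-Hochberg adjusted p = 0.0384). Both genes were below the on level at all 3 times, as were 45.8% of all genes. Pa2g4, a growth-linked RNA-binding protein, had the highest on level of the 10, 145 FPKM, and was at 94.4, 111 and 126 FPKM off. Rrp1b was at 9.59 FPKM on and at 5.76, 6.79 and 6.79 FPKM off, and Nop2, a ribosomal RNA methyltransferase, at 28.3 FPKM on and at 21.3, 22.0 and 25.8 FPKM off. These 3 were lower at all times without passing. Ppan was at 35.4 FPKM on and at 26.6, 28.7 and 38.8 FPKM off, and Gnl3, nucleostemin, at 36.1 FPKM on and at 33.2, 39.2 and 44.5 FPKM off. Both exceeded the on level at 96 h.

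Growth enzymes and the translation factor on the list did not move as a unit. Odc1, ornithine decarboxylase, the first enzyme of polyamine synthesis, rose from 151 FPKM to 258, 291 and 349 FPKM (mean log2 change 0.97 ± 0.22, SD, n = 3; limma, Benjamini-Hochberg adjusted p = 0.0195). It was higher in 3 of 3 off libraries and was the only one of the 36 called up. Srm, spermidine synthase, which makes spermidine, was at 53.4 FPKM on and at 41.01, 43.8 and 53.0 FPKM off. Cad, which starts pyrimidine synthesis, was at 18.6 FPKM on, at 17.0 FPKM at 48 h, and at 21.8 and 25.7 FPKM at 72 h and 96 h. Eif4a1, the helicase that opens messenger RNA for translation, was at 526 FPKM on and at 320, 365 and 402 FPKM off. So Odc1 was above and Eif4a1 below the on library at all times, while Srm was near it and Cad above it at 96 h.

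**Figure D3:**
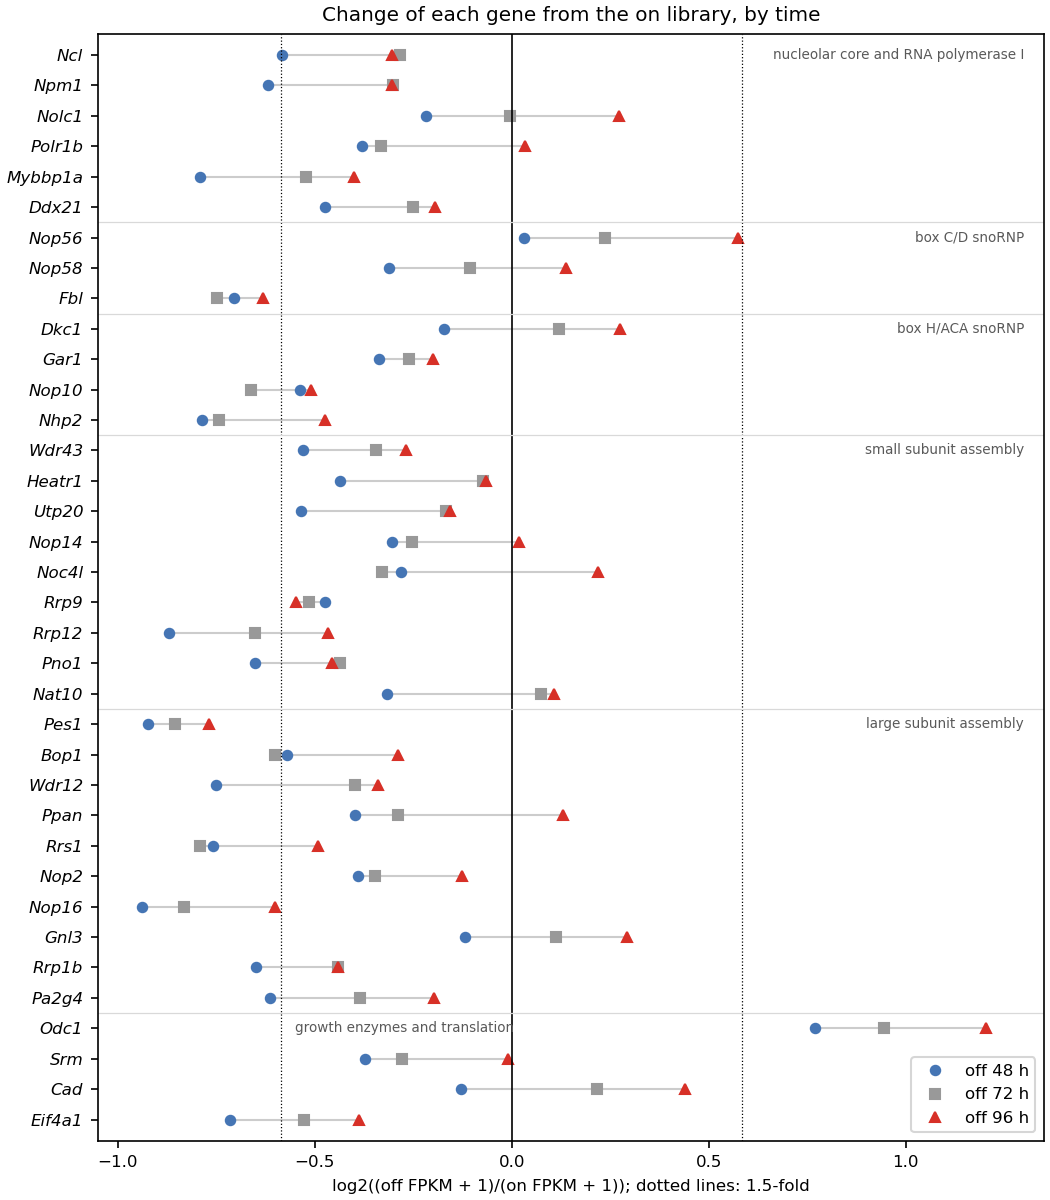
Change from the on library, log2((off FPKM + 1)/(on FPKM + 1)), of each of the 36 genes at 48 h (circles), 72 h (squares) and 96 h (triangles), ordered by role, with dotted lines at 1.5-fold. Fbl, Pes1 and Nop16 lie left of the lower line at all 3 times, Odc1 lies right of the upper line, and for all genes but Rrp9 the triangle is to the right of the circle.

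The 3 off libraries were tested together against the on library with limma on log2(FPKM + 1), adjusted over 12015 genes. In this test the course over time counts as spread, and the single on library is taken to vary as much as the off ones do. Of the 36 genes, 6 fell (Pes1, Nop16, Fbl, Rrs1, Rrp12 and Nhp2), 1 rose (Odc1) and 29 did not pass, which does not show that those 29 were unchanged. The share that fell, 6 of 36, was near the background: 15.1% of all genes were called down and 11.8% up. At an unadjusted limma p under 0.05 stood 15 of the 36 members and 4973 of the 12015 genes. Without the 72 h library none of the 6 passed (limma), with Benjamini-Hochberg adjusted p from 0.0698 for Pes1 to 0.234 for Nhp2, and 4 members had an unadjusted p under 0.05. Without the 96 h library 13 fell, and without the 48 h library 8. Over the 11 alternatives the adjusted p ranged from 0.000111 to 0.0698 for Pes1, from 0.000417 to 0.0739 for Nop16 and from 0.000981 to 0.220 for Fbl. It ranged from 0.00128 to 0.186 for Rrs1, from 0.00171 to 0.132 for Rrp12, from 0.000805 to 0.234 for Nhp2 and from 0.000113 to 0.0527 for Odc1. With the median change set to 0, 2 members were called down, Pes1 and Nop16, beside 1246 genes down and 1726 up. Rescaled outside globin genes, Pes1 was the only member called down, beside 1018 genes down and 2032 up, where the deposited scale gave 1814 down and 1415 up. Odc1 was called up under both scalings.

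Other genes of the pathway, in lists that hold none of the 36, mostly had negative medians that were nearer to 0 at 96 h. Over the 8 lists 32 of 209 tested genes fell and 4 rose in limma. The share that fell was near that of all genes, and the share that rose was below it. The numbers that fell were 25 with the median change set to 0, 9 after rescaling outside globin genes and 8 without the 72 h library. After that rescaling none of the subunit factors and no exosome gene was called, and the medians at 96 h of the small subunit, large subunit, snoRNP assembly and initiation lists were above 0 (0.009, 0.01, 0.17 and 0.11). RNA polymerase I subunits and factors had medians of -0.45, -0.41 and -0.36 at 48 h, 72 h and 96 h over 19 measured genes, of which 4 fell and none rose. Znrd1, a small subunit of the enzyme, fell from 38.9 FPKM to 20.5, 16.0 and 18.4 FPKM. Taf1b, of the factor that places the enzyme on its promoter, fell by 0.93 on the log2 scale and Cd3eap, another subunit, by 0.82 (limma, Benjamini-Hochberg adjusted p = 0.00842 and 0.0178). Among other small subunit factors, 6 of 46 fell and none rose, with medians of -0.43, -0.31 and -0.17. Rrp7a fell from 50.3 FPKM to 30.6, 25.9 and 29.8 FPKM, Riok2, a kinase of the late precursor, from 11.0 FPKM to 5.35, 5.81 and 6.98 FPKM, and Nol6 from 21.9 FPKM to 10.7, 12.1 and 14.99 FPKM. At 96 h, 41 of the 46 were higher than at 48 h, beside 59.6% of all genes.

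Of 48 other large subunit factors, 7 fell and none rose, with medians of -0.43, -0.33 and -0.16. At 96 h, 44 of them were higher than at 48 h, beside 59.6% of all genes. Eif6, which keeps the subunits apart until the large one is mature, fell from 89.8 FPKM to 53.7, 46.1 and 53.6 FPKM. The helicase Ddx54 fell from 40.3 FPKM to 24.3, 21.7 and 23.5 FPKM and Rpf2, the partner of Rrs1, from 31.4 FPKM to 15.3, 20.4 and 19.3 FPKM. Of 11 snoRNP assembly factors 1 fell, Nufip1, from 5.94 FPKM to 2.76, 2.71 and 3.29 FPKM, with list medians of -0.39, -0.20 and -0.01. Naf1, which escorts new box H/ACA particles, was at 6.26 FPKM on and at 3.34, 4.58 and 4.61 FPKM off, and the helicase Ruvbl2 at 57.8 FPKM on and at 43.2, 37.8 and 48.0 FPKM off. Neither passed.

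The RNA exosome trims ribosomal RNA. Of its 16 measured genes 3 fell, with medians of -0.45, -0.36 and -0.19. All 16 were higher at 96 h than at 48 h, beside 59.6% of all genes. Exosc5 fell from 55.9 FPKM to 26.9, 25.8 and 37.0 FPKM, Mphosph6 from 32.0 FPKM to 13.6, 20.5 and 19.6 FPKM and Exosc6 from 20.8 FPKM to 12.6, 11.8 and 12.8 FPKM. Cytosolic ribosomal protein genes, picked by symbol, had medians of -0.52, -0.58 and -0.30 over 77 genes, many with near-identical copies. Their median was lowest at 72 h and that of the members at 48 h.

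Nucleotide and polyamine enzymes, beside Cad, Odc1 and Srm, went both ways. Of 22 nucleotide enzymes 4 fell and 2 rose, with medians of -0.33, -0.12 and 0.06. Nme2, a nucleoside diphosphate kinase, fell from 415 FPKM to 128, 121 and 111 FPKM. Mthfd1 rose from 27.2 FPKM to 51.0, 62.3 and 79.7 FPKM and Mthfd2 from 32.5 FPKM to 78.2, 65.0 and 75.2 FPKM, both of the folate cycle. Of 10 polyamine genes 3 fell (Sms, Paox and Dohh) and 1 rose, Smox, which oxidises spermine, from 34.0 FPKM to 90.5, 112 and 115 FPKM. The medians of the polyamine list were -0.24, -0.29 and -0.24, nearly the same at 96 h as at 48 h. Azin1, which protects ornithine decarboxylase from its antizyme, was at 28.8 FPKM on and at 39.2, 60.1 and 60.1 FPKM off (limma, Benjamini-Hochberg adjusted p = 0.0531). Amd1 has a near copy in the genome between which reads could be split, which was not examined, and its values are uncertain, at 0.00229 FPKM on and 0.00196, 6.04 and 5.30 FPKM off. Of 37 translation initiation factors 4 fell and 1 rose, with medians of -0.40, -0.18 and -0.07. Eif4a2, the close relative of Eif4a1, rose from 34.0 FPKM to 58.6, 63.6 and 72.5 FPKM, while Eif1a fell from 28.1 FPKM to 13.4, 15.9 and 14.7 FPKM and Eif5a, which carries a modification made from spermidine, from 1225 FPKM to 765, 704 and 741 FPKM.

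**Figure D4:**
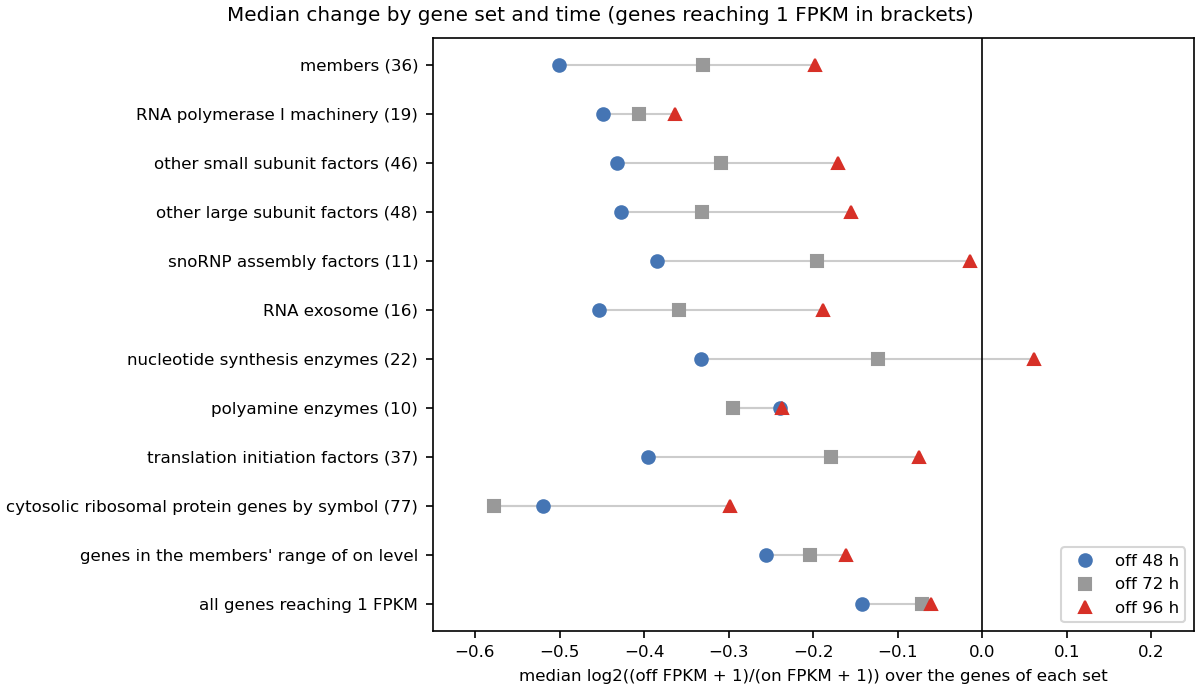
Median log2((off FPKM + 1)/(on FPKM + 1)) over the genes of each list at 48 h (circles), 72 h (squares) and 96 h (triangles), with the number of genes reaching 1 FPKM in brackets. The members go from -0.50 to -0.20, the other small subunit factors from -0.43 to -0.17, and all genes lie nearer to 0.

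Myc itself was at 41.1 FPKM on and at 28.0, 25.7 and 28.6 FPKM off, below the on level at all 3 times, as were 45.8% of all genes. Myc did not pass (mean log2 change -0.57 ± 0.08, SD, n = 3; limma, Benjamini-Hochberg adjusted p = 0.0537). Its partner Max was at 53.3 FPKM on and at 63.0, 61.4 and 53.5 FPKM off. Myc was at nearly the same level at 96 h as at 48 h, and most members were higher at 96 h. A link between these courses was not tested. Myc protein was not measured.

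Markers of blood cell types shifted beside these genes, and the lists do not separate leukaemia cells from cells of the mouse. In bulk RNA fewer cells of a type and less RNA per cell cannot be told apart. All 22 erythroid markers rose in limma and were at least 2-fold higher at each time, with none at 0 in any library, and their summed level was 8101 FPKM on and 25627, 38354 and 41239 FPKM off. All 7 measured primary granule genes, which mark early myeloid cells, fell and were at least 2-fold lower at each time, with sums of 3236 FPKM on and 433, 400.2 and 360.4 FPKM off. Of 20 pan-leukocyte genes 9 fell, and the list's median was -0.51 at 48 h, -0.82 at 72 h and -1.13 at 96 h, moving away from 0 while the members' median moved towards it. Their summed level was 5916 FPKM on and 4297, 3437 and 2615 FPKM off. Of 12 markers of T, B and natural killer cells 7 reached 1 FPKM, 4 rose and 1 fell, with sums of 23.5 FPKM on and 33.0, 28.3 and 25.3 FPKM off. Cd3e was listed at 0 in the on and 72 h libraries. The part of these shifts in the members' course was not tested.

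Several members hold snoRNA genes within their span, among them the snoRNP proteins Nop56, Nop58 and Dkc1. In the RefSeq gene table (GRCm38.p6, used for neighbours only), 9 of the 36 spans held at least 1 snoRNA gene (25%), beside 242 of 10382 measured protein-coding genes (2.33%), with 24 snoRNA genes in all. Nop56 held 5 and Nop58 held 4, and Eif4a1, Gnl3 and Wdr43 held 3 each. Ncl and Ppan held 2 each, and Dkc1 and Odc1 held 1 each. Strand was not compared, so a snoRNA gene on the opposite strand would be counted. These 9 genes covered changes at 48 h from -0.71 for Eif4a1 to 0.77 for Odc1. The strand setting of the deposited values is not given in the sources used here, and no snoRNA level is given.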

How the data were processed

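The authors deposited FPKM values in tables that pair the on library with 1 off library each. TopHat2 2.0.4, Cuffdiff and build mm9 were used, per the submitters' processing notes, and no source used here gives the annotation, the strand setting or the Cuffdiff version. The 3 tables of single times were used, and the table with a combined off value was not. The zero-hour column stands for the on sample. Each table was scaled separately, so the 72 h and 96 h tables were multiplied by 1.053 and 1.056 to match the on column of the 48 h table; over 99.9% of 15825 genes then agreed within 0.1%. The members' changes differed by at most 0.003 between that scale and each table's own. Total depth is unknown. From the spacing of low values, the FPKM of 1 read relative to that in the on library was 0.874 (48 h), 0.963 (72 h) and 0.844 (96 h).

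Genes reaching 1 FPKM were kept, with a pseudocount of 1 FPKM. With 1 library per group, counts at each time have no test. limma 3.58.1 (statmod 1.5.0, R 4.3.3; eBayes with trend and robust, 2 residual degrees of freedom, Benjamini-Hochberg at 0.05) compared the off state with on. A simulation tried this limma fit on shifts of 2-fold or 4-fold only. At the smaller shift it called 1 gene out of 100, and at the larger 62 out of 100. Most members differed from the on library by less than 2-fold. Shifts of that size were not simulated, so their recovery is not known. A gene that did not pass is therefore not shown to be unchanged. The p-values rest on the spread among the 3 off libraries, since the single on library adds none. That spread holds the course over time together with any technical spread. In limma it is also pooled over genes, so a gene's p-value does not rest on its own SD alone. Fbl, for example, had an SD of 0.06 and a limma standard error of 0.20. Nothing states that the libraries are from separate animals. Alternatives changed the pseudocount (0.1 and 5 FPKM), the filter, the scaling and the model, or left out 1 off library. The comparison with genes in the members' range of level, the ribosomal protein list, and the alternatives for 96 h against 48 h were chosen after seeing the data.

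Members and lists were chosen with earlier results of these data known. Every member is given; from each pathway list the 3 genes with the largest mean change among those reaching 5 FPKM are named. Genes with near-identical processed copies elsewhere, such as Npm1, are uncertain. The value of 1 marker of the lymphoid list is not reported here.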

Additional observations from a re-analysis of the deposited data

Results flagged for a closer look

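In 10 members the change from the on library pointed down at 48 h and up at 96 h, beside 11.5% of all genes, and all genes also shifted upward between these times (59.6% were higher at 96 h). With 1 library at each time the difference was not tested. The log2 difference between 96 h and 48 h was 0.49 for Nolc1, 0.41 for Polr1b, 0.45 for Nop58, 0.45 for Dkc1 and 0.32 for Nop14. It was 0.50 for Noc4l, 0.42 for Nat10, 0.53 for Ppan, 0.41 for Gnl3 and 0.57 for Cad. The changes at 96 h themselves were small, from 0.02 for Nop14 to 0.44 for Cad.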

How the results depend on the processing

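Scaling and the choice of libraries decided the counts. With the median change set to 0, members at least 1.5-fold lower numbered 7, 5 and 1 at 48 h, 72 h and 96 h (13, 8 and 3 as reported), those at least 1.5-fold higher 2 at 96 h, and 1 was 2-fold changed at 72 h (0 as reported). Rescaled outside globin genes and short RNAs, they numbered 3, 2 and 0, 3 were higher at 96 h, 1 was 2-fold changed at 72 h, and the medians were -0.29, -0.12 and -0.010. Members that fell in the limma test numbered 2 with the median set to 0, 1 after the rescaling, 1 with no filter on low values (where 0 rose) and 19 with the slope of time as a covariate. Leaving out 1 library gave 0 to 13 members down and 1 up. Over all genes 1814 were down and 1415 up; the rescaling gave 1018 down, the slope of time 3572 down and 2469 up, and leaving out 1 library 1209 to 2398 down and 1108 to 1904 up. The number of members higher at 96 h than at 48 h was 33 to 35 of 36 under the alternatives run for it.

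Some members that did not pass changed sign. After the rescaling the log2 estimates were 0.12 for Nop58, 0.0036 for Heatr1, 0.022 for Nop14, 0.073 for Noc4l, 0.15 for Nat10 and 0.020 for Ppan. With the median set to 0 they were 0.0072 for Nop58 and 0.056 for Nat10. Leaving out 1 library gave -0.11 (without 96 h) to 0.13 (without 48 h) for Nolc1, -0.21 (without 96 h) to 0.016 (without 48 h) for Nop58, -0.025 (without 96 h) to 0.20 (without 48 h) for Dkc1, -0.12 (without 96 h) to 0.092 (without 48 h) for Nat10, and -0.0028 (without 96 h) to 0.20 (without 48 h) for Gnl3. The cause was not tested. No paired analysis was possible because each group holds 1 library. Depth is unknown, so no counting error can be given.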
